A study of Mus musculus with 9 samples.

Results

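The bone morphogenetic protein (BMP) signaling genes described here are the ligands Bmp2, Bmp4, Bmp5 and Bmp7, the type I receptors Bmpr1a and Bmpr1b, and the Id targets Id1, Id2, Id3 and Id4. They were chosen by name, and all 10 were matched by Ensembl gene ID among the 54232 genes counted in every library. Their RNA was measured by bulk sequencing of mouse cochlear ducts, microdissected at E14.5 with both inner ears of 1 embryo in each library. The genotypes were compared to ask what loss of Prdm16, a transcriptional regulator made in Kölliker's organ (KO), does to RNA levels in the duct. The Prdm16 cGT null embryos carried the gene-trap null allele on both chromosomes (cGT/cGT, n = 3), the heterozygotes carried it on 1 (cGT/+, n = 3), and the WT littermates did not carry it (+/+, n = 3). All 9 embryos were of an FVB/NJ background, and the allele is present in every cell of the embryo, so that the tissue around the duct is also mutant. The sex of the embryos was not given in the sources used here. In bulk samples, fewer cells of a type and less RNA per cell cannot be told apart.

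BMP ligands are secreted dimers that bind a complex of type I and type II receptor kinases. The type I receptor then phosphorylates Smad1, Smad5 and Smad9, which enter the nucleus with Smad4 and turn on target genes, among them the Id genes. Id proteins are helix-loop-helix proteins that lack the basic region needed to bind DNA, and they hold E proteins and proneural factors such as Atoh1 away from their sites. In the floor of the cochlear duct Bmp4 marks the future outer sulcus, on the side opposite KO, and the prosensory domain (PD) lies between the 2 regions.

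Total counts per library ranged from 24095322 to 30819118, so that a count of 3, taken as the lowest level that can be told from 0, was between 0.0969 and 0.126 CPM (TMM-scaled counts over the library total, on the usual CPM scale). Prdm16 itself was at 184.0 to 225.1 CPM in WT, 122.7 to 151.3 CPM in heterozygotes and 19.1 to 27.4 CPM in null embryos, in the order of the labelled genotypes. Marker genes of cells around the duct differed among libraries of 1 genotype. The sum of 10 periotic mesenchyme markers was 588.5, 1080 and 114.3 CPM in WT (embryos 1 to 3, in this order here and for each gene), 53.3, 101.2 and 73.6 CPM in heterozygotes, and 64.8, 37.0 and 1476 CPM in null embryos. The sum of 8 endothelial markers was 94.2, 77.6 and 54.7 CPM in the libraries of WT embryos 1 and 2 and of null embryo 3, the 3 with the most mesenchyme RNA, and between 4.62 and 9.25 CPM in the other libraries. Null embryo 3 stood apart, with 13251 CPM over 6 cartilage markers against 5233 to 6208 CPM in the rest. Col2a1 alone gave 4493.5 to 5492.7 CPM of the sum in the rest and 10063 CPM in null embryo 3. Cartilage genes such as Acan (502 CPM in that library, 7.03 CPM or less elsewhere) marked this library most sharply. The sum of 15 outer sulcus markers, the cells known for Bmp4, lay between 3569 and 3931 CPM in all 9 libraries and overlapped between genotypes, although the markers moved apart within it. Of the 15, 6 were higher and 3 lower in every null library than in WT, with Sgk1 called higher and Tac1 called lower. Over all genes tested between these genotypes, 10.1% were higher in every null library and 19.0% did not overlap in either direction. The share called in edgeR was 1.71%, and 12.2% had an unadjusted p under 0.05. Sfrp1 alone gave 1438 to 1756 CPM of the outer sulcus sum. The sum of 10 KO markers was 3904 to 4784 CPM in WT and 2169 to 2471 CPM in null embryos, with 8 of the 10 called lower. Tecta alone gave 2602 to 3232 CPM of the WT sums and 1393 to 1642 CPM of the null sums. The sum of 10 PD markers was 1065 to 1155 CPM in WT and 1230 to 1544 CPM in null embryos, with 2 called higher. Of 10 markers of the duct roof none was called in edgeR (6 higher and 1 lower at an unadjusted p under 0.05), and 6 were higher in every null library, among them Oc90 (7249 to 8463 CPM in WT and 10042 to 13379 CPM in null embryos), while Lrp2 was at 461.2 to 574.0 and 322.0 to 466.0 CPM. The sum of 5 melanocyte markers was 55.2 to 132.2 CPM in WT and 12.2 to 43.0 CPM in null embryos, with none of the 5 called in edgeR and all 5 lower at an unadjusted p under 0.05. The heterozygotes also lay outside the WT range for several of these sums. They were above it for PD (1282 to 1298 CPM) and for roof (10042 to 10588 against 8412 to 9854 CPM in WT). Oc90 alone gave 8764 to 9184 CPM of the heterozygote roof sums. The heterozygotes lay above the WT range too for 6 Schwann and glial markers (1627 to 1701 against 1480 to 1579 CPM). They lay below it for the mesenchyme sum, for melanocyte markers (20.6 to 40.4 CPM) and for 7 erythroid markers (36.7 to 57.7 against 86.1 to 239.6 CPM, with 58.4 to 122.0 CPM in null embryos). No gene of the PD, roof, glial, melanocyte or erythroid lists was called between heterozygotes and WT in edgeR. At an unadjusted p under 0.05, 5 PD, 5 roof and 1 glial gene were higher. At the same level 1 glial, 4 melanocyte, 5 erythroid and all 10 mesenchyme markers were lower, with no mesenchyme marker called. Over all genes 13.1% had such a p, and 0.151% were called. Among the outer sulcus markers Pcdh17 was called lower, at 38.8 to 46.0 CPM in heterozygotes against 59.9 to 77.5 CPM in WT. The part of these cell types in the differences below was not tested. The sum of 8 otic epithelium markers was 2301 to 2422 CPM in WT, 2431 to 2495 CPM in heterozygotes and 2302 to 2761 CPM in null embryos. Every heterozygote thus lay above WT here too. All 8 genes had a log2 fold change above 0 for heterozygotes against WT. None was called in edgeR, and 2 were higher at an unadjusted p under 0.05. The 7 neuron markers together reached 22.8 CPM at most.

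In WT ducts the 10 genes spanned a wide range of RNA levels. To compare genes, CPM was divided by the length of the gene's exons. Bmp4 was the most abundant, at 119.5 ± 4.97 CPM per kb (SD, n = 3), above 99.1% of the 17784 genes ranked. Id3 followed at 106.4 ± 23.9 and Id2 at 105.1 ± 12.9 CPM per kb, and the WT libraries of Bmp4 and Id3, and of Id3 and Id2, overlapped. Id1 at 78.7 ± 19.3 and Bmp7 at 59.8 ± 2.42 CPM per kb also overlapped each other. Bmpr1a came next at 35.6 ± 0.636 CPM per kb, Id4 at 14.3 ± 1.62 and Bmpr1b at 4.34 ± 0.973, each separated from its neighbors in every WT library. Bmp5 at 1.52 ± 1.22 and Bmp2 at 1.50 ± 0.236 CPM per kb were the lowest and overlapped each other, with Bmp2 above 31.5% of the ranked genes. Of the receptors described here Bmpr1a thus had the more RNA in the WT duct, and of the ligands Bmp4 and Bmp7.

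**Figure D1:**
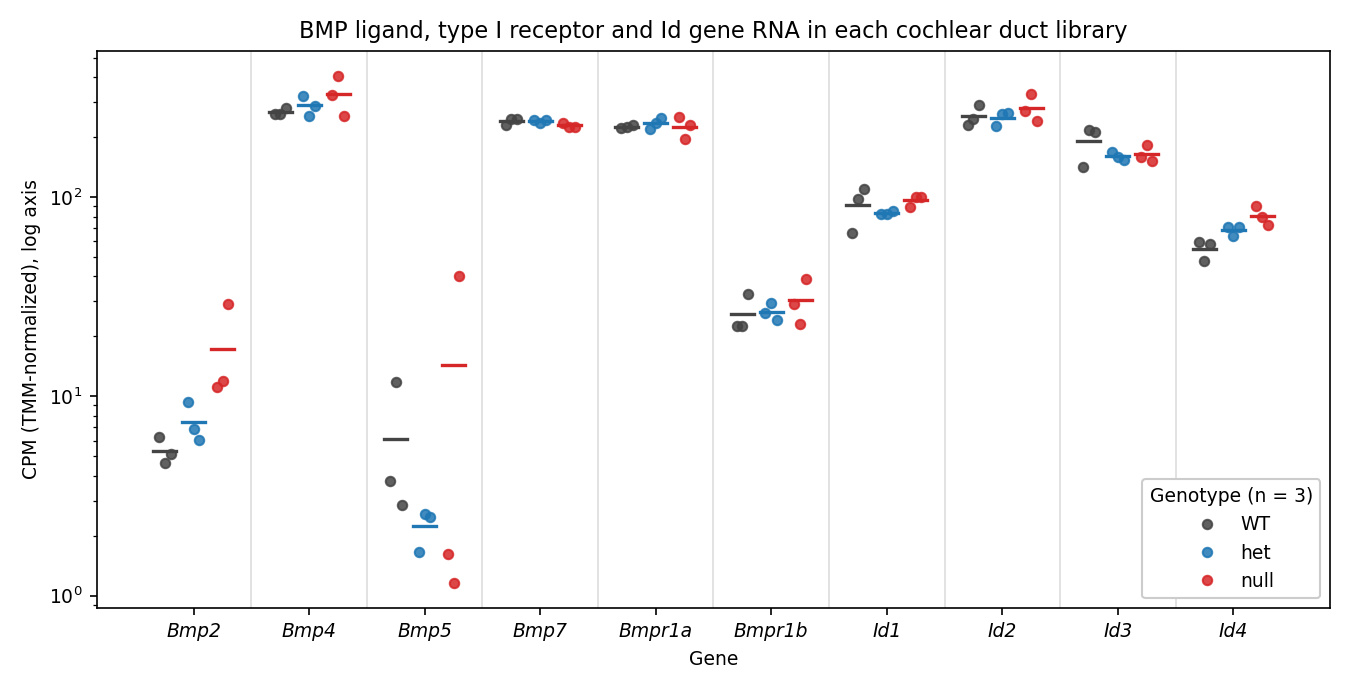
RNA level of each of the 10 genes (CPM, log axis) in the 3 WT, 3 heterozygote and 3 null libraries, 1 point per embryo, with a bar at the mean of each genotype. The 3 null libraries lie above all WT libraries for Bmp2 and Id4, while Bmp5 spreads from 1.16 to 40.2 CPM within the null embryos.

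Bmp2 and Id4 had more RNA in every null library than in any WT library, and the other 8 genes overlapped between these genotypes. No gene of the 10 passed the thresholds (edgeR quasi-likelihood test, Benjamini-Hochberg adjusted p under 0.05 over all genes and an absolute log2 fold change over 0.5) between null and WT ducts, where 293 of 17168 genes passed (1.71%). At an unadjusted p under 0.05 there were 2, Bmp2 and Id4, against 12.2% of all genes, and 19.0% of all genes had null libraries that did not overlap WT, so that the 2 of 10 are near the share of all genes. DESeq2 called Bmp2 and Id4, among 333 genes called higher and 285 lower (3.27% of the genes it gave an adjusted p), and gave Bmp5 no p. limma-voom called none of the 10. The median log2 fold change of the 10 was 0.17, against 0.01 over all genes tested, with 7 values above 0 and 3 below. It was 0.034 without null embryo 3 and 0.28 without WT embryo 3, the lowest and highest with 1 embryo left out.

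Between heterozygotes and WT, Id4 was higher and Bmp5 lower in every heterozygote library. None of the 10 passed the edgeR thresholds, which 26 of 17269 genes did (0.151%), and neither DESeq2 nor limma-voom called any. The unadjusted p was under 0.05 for 3 genes (Bmp2, Bmp5 and Id4), against 13.1% of all genes, and 18.0% of all genes had heterozygote libraries that did not overlap WT. The median log2 fold change of the 10 was 0.02, against 0.00 over all genes, and lay between -0.044 and 0.070 with each embryo left out.

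Between null embryos and heterozygotes, Bmp2, Id1 and Id4 were higher and Bmp7 lower in every null library. Again none of the 10 passed the edgeR thresholds, against 105 of 17067 genes (0.615%). limma-voom called none of the 10, and DESeq2 none of the 9 it gave a p, Bmp5 being without one. The unadjusted p was under 0.05 for Bmp2, Id1 and Id4, against 11.4% of all genes, and 18.2% of all genes did not overlap between these genotypes. The median of the 10 was 0.19, against 0.01 over all genes, and 0.11 to 0.20 with each embryo left out. The 3 comparisons share libraries, so their values are not independent of each other. The p-values measure the spread between these embryos, and an exact two-sided permutation test of 3 against 3 libraries cannot go below p = 0.1.

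**Figure D2:**
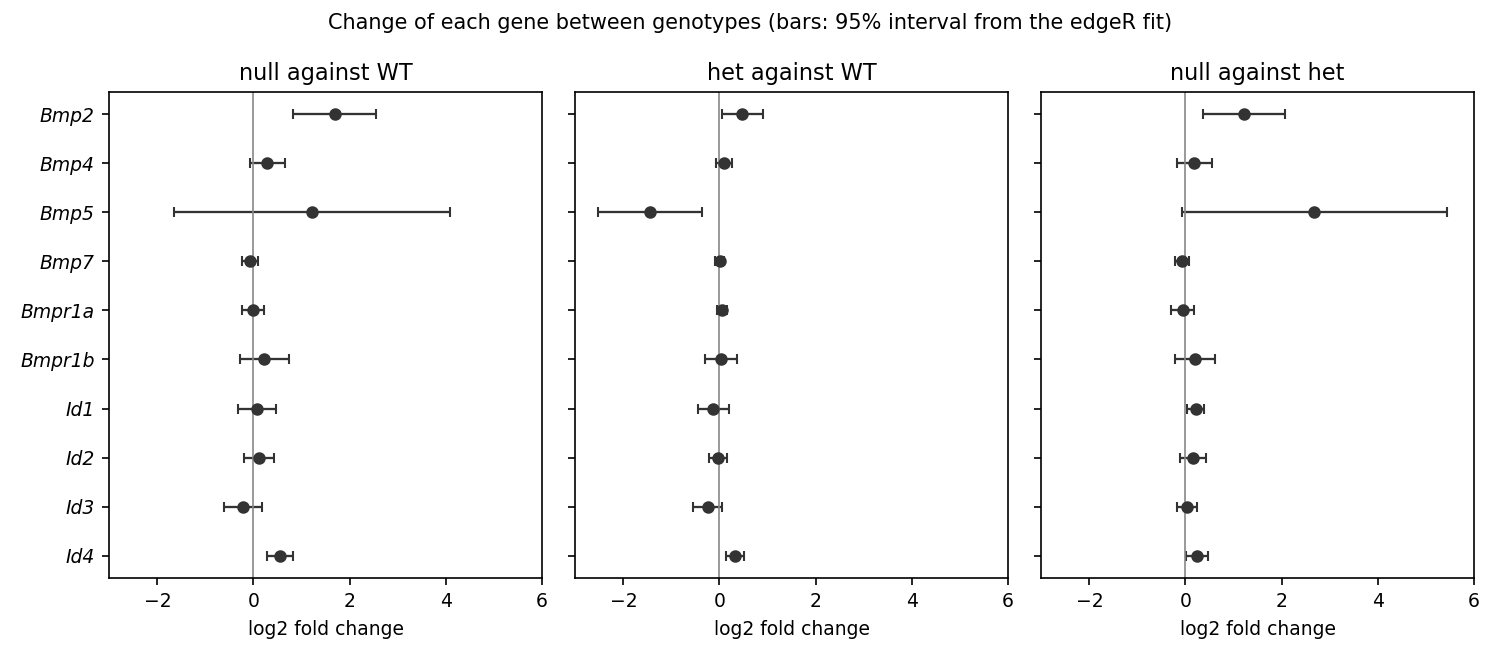
Log2 fold change of each of the 10 genes in the 3 comparisons of genotypes, with the 95% interval of the edgeR fit, over 3 embryos per genotype. The interval of Bmp2 lies above 0 in every comparison, as does that of Id4, and the interval of Bmp5 between null and WT reaches from -1.66 to 4.09.

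Of the ligands, Bmp2 was the one with more RNA in every null library than in every WT library. Bmp2 (ENSMUSG00000027358, mm10 chromosome 2, 133552159 to 133562885, plus strand) is a ligand closely related to Bmp4 in sequence and in receptor use. It was at 6.26, 4.63 and 5.12 CPM in WT, at 9.40, 6.89 and 6.03 CPM in heterozygotes, and at 11.1, 11.9 and 29.0 CPM in null embryos. All null libraries were above all others, null embryo 3 was the highest, and heterozygotes overlapped WT. The log2 fold change of null against WT was 1.69 (SE 0.374, 95% interval 0.83 to 2.56, adjusted p = 0.0812 in edgeR). The value was 0.48 for heterozygotes over WT (SE 0.193, adjusted p = 0.328 in edgeR), 0.28 without heterozygote 1, and 1.22 for null embryos against heterozygotes (SE 0.375, adjusted p = 0.285 in edgeR), the latter 0.63 without null embryo 3. The counts behind these values were 118 to 691 per library. Without null embryo 3, the library with the high cartilage and mesenchyme markers, the Bmp2 value of null against WT was 1.11 and passed the thresholds (adjusted p = 0.0215 in edgeR, range over the fits that each left out 1 embryo 0.0215 to 0.347). With the mesenchyme marker level as a covariate it was 1.87 (adjusted p = 0.00699 in edgeR).

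Bmp4 (ENSMUSG00000021835, chromosome 14, 46383520 to 46390669, minus strand), the outer sulcus ligand, was among the most abundant genes of the WT duct. Its level was 262.5, 261.9 and 281.6 CPM in WT, 324.0, 256.6 and 285.9 CPM in heterozygotes, and 327.3, 405.7 and 254.6 CPM in null embryos. Null embryo 2 was the highest of the 9 and null embryo 3 the lowest, so the null libraries reached past WT on both sides. Null embryos differed from WT by a log2 fold change of 0.29 (SE 0.155, 95% interval -0.07 to 0.65, adjusted p = 0.517 in edgeR), and that of heterozygotes was 0.10 (SE 0.0752, adjusted p = 0.613 in edgeR). The null value was 0.12 without null embryo 2 and 0.45 without null embryo 3 (adjusted p = 0.756 and 0.0825 in edgeR), and the heterozygote value was 0.014 without heterozygote 1 and 0.18 without heterozygote 2. The spread between null embryos (SD 75.5 CPM) was wider than that between WT embryos (SD 11.2 CPM).

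Bmp7 (ENSMUSG00000008999, chromosome 2, 172868012 to 172940321, minus strand), a ligand that can pair with Bmp2 or Bmp4, had the smallest spread of the ligands relative to its mean (coefficient of variation 4.04% in WT, where Bmp4 had 4.16%, 1.59% in heterozygotes and 2.79% in null embryos). It was at 229.3, 246.2 and 246.0 CPM in WT, 242.9, 236.9 and 244.0 CPM in heterozygotes, and 236.5, 225.2 and 225.7 CPM in null embryos. The null libraries were all below the heterozygotes and overlapped WT. Bmp7 had a log2 fold change of -0.07 between null and WT (95% interval -0.24 to 0.09, adjusted p = 0.731 in edgeR) and 0.00 between heterozygotes and WT (95% interval -0.09 to 0.10, adjusted p = 0.983 in edgeR). Both intervals lie within 0.25 of 0 on the log2 scale.

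Bmp5 (ENSMUSG00000032179, chromosome 9, 75775364 to 75900310, plus strand), a ligand of the same subgroup as Bmp7, varied most of the 10 among WT embryos and among null embryos (coefficient of variation 80.3% and 156%). It was at 3.74, 11.8 and 2.85 CPM in WT, 1.65, 2.56 and 2.49 CPM in heterozygotes, and 1.61, 1.16 and 40.2 CPM in null embryos. Its 3 highest libraries, null embryo 3 and WT embryos 2 and 1, were those with the highest mesenchyme marker sums, in the same order, and its lowest, null embryo 2, had the lowest sum. The part of mesenchyme RNA in the Bmp5 differences was not tested. The log2 fold change of null against WT was 1.22 (SE 1.24, 95% interval -1.66 to 4.09, adjusted p = 0.755 in edgeR), and without null embryo 3 it was -2.15 (adjusted p = 0.139 in edgeR). Heterozygotes were all below WT, with a log2 fold change of -1.45 (SE 0.480, adjusted p = 0.224 in edgeR). That value passed the thresholds without WT embryo 3 (-1.79, adjusted p = 0.0284 in edgeR, range over the fits that each left out 1 embryo 0.0284 to 0.584), and was -0.56 without WT embryo 2. Null against heterozygotes, Bmp5 had a log2 fold change of 2.68 (SE 1.20, adjusted p = 0.448 in edgeR) and of -0.70 without null embryo 3. With the mesenchyme markers as a covariate the Bmp5 values were 1.17 for null against WT (SE 0.437, adjusted p = 0.293 in edgeR, range over the alternatives 0.223 to 0.934), 0.11 for heterozygotes against WT and -0.029 for null against heterozygotes. Bmp5 exons share 1878 bases with the gene Gm26903 on the opposite strand, and the use of strand in counting was not given in the sources used here.

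**Figure D3:**
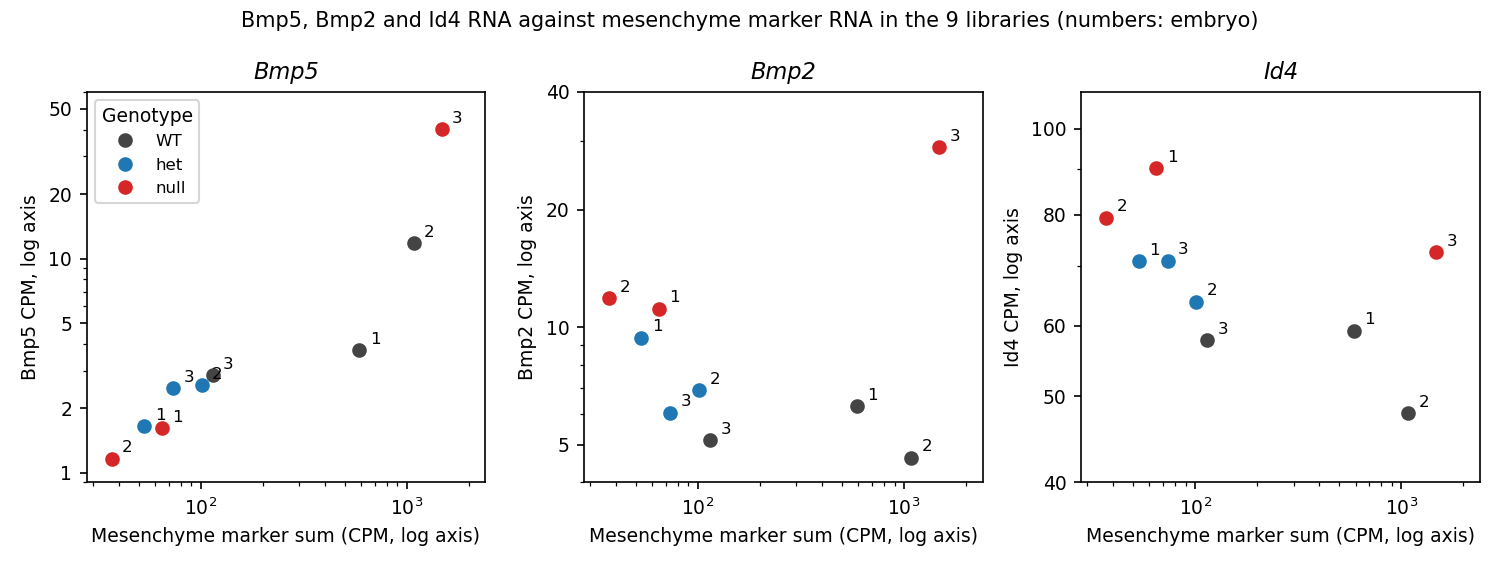
RNA level of Bmp5, Bmp2 and Id4 (CPM, log axis) against the summed level of 10 periotic mesenchyme markers (CPM, log axis) in the 9 libraries, colored by genotype and numbered by embryo. Bmp5 follows the marker sum from 1.16 CPM at a sum of 37.0 to 40.2 CPM at 1476. Id4 is lowest among WT in embryo 2 (47.9 CPM, sum 1080) and among null in embryo 3 (72.7 CPM, sum 1476). The heterozygote sums are 53.3 to 101.2 CPM. The part of mesenchyme RNA in the Id4 differences was not tested.

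The type I receptors had similar levels in all genotypes. Bmpr1a (ENSMUSG00000021796, chromosome 14, 34410734 to 34503341, minus strand), the broadly expressed receptor for Bmp2 and Bmp4, was at 223.6, 224.1 and 230.9 CPM in WT, 219.3, 235.6 and 249.5 CPM in heterozygotes, and 251.5, 195.3 and 231.3 CPM in null embryos. The libraries of the genotypes overlapped, with both the highest and the lowest value in null embryos. Bmpr1a had a log2 fold change of -0.01 for null against WT (95% interval -0.24 to 0.22, adjusted p = 0.987 in edgeR) and 0.05 for heterozygotes against WT (95% interval -0.06 to 0.17, adjusted p = 0.715 in edgeR). Bmpr1b (ENSMUSG00000052430, chromosome 3, 141837136 to 142169425, minus strand), a more restricted receptor known from cartilage and limb, was at 22.5, 22.5 and 32.6 CPM in WT, 26.1, 29.3 and 24.1 CPM in heterozygotes, and 29.2, 23.2 and 38.8 CPM in null embryos. Null embryo 3 was again the highest, and the genotypes overlapped. Its log2 fold change was 0.23 for null against WT (95% interval -0.28 to 0.74, adjusted p = 0.739 in edgeR), 0.03 for heterozygotes against WT (95% interval -0.29 to 0.36, adjusted p = 0.949 in edgeR) and 0.20 for null embryos against heterozygotes (adjusted p = 0.684 in edgeR). The null value of Bmpr1b against WT was 0.015 without null embryo 3 and 0.43 without WT embryo 3, and no fit called it. The interval of Bmpr1b allows a wider change than that of Bmpr1a, and its counts were 574 to 960 per library.

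Of the Id targets, Id4 was the only one whose 3 genotypes did not overlap, an order with heterozygotes in between that 292 of 17797 genes (1.64%) had in either direction. Id4 (ENSMUSG00000021379, chromosome 13, 48261228 to 48266026, plus strand), the Id family member known from neural progenitors, was at 59.3, 47.9 and 57.9 CPM in WT, 70.9, 63.9 and 71.1 CPM in heterozygotes, and 90.3, 79.4 and 72.7 CPM in null embryos. Every heterozygote was above every WT embryo and every null embryo above every heterozygote. In log2 units the difference was 0.55 for null against WT (SE 0.114, 95% interval 0.29 to 0.82, adjusted p = 0.0653 in edgeR). It was 0.32 for heterozygotes against WT (SE 0.0833, adjusted p = 0.128 in edgeR) and 0.24 for null embryos against heterozygotes (SE 0.0992, adjusted p = 0.427 in edgeR). Without null embryo 3 the value of null against WT was 0.62 and passed the thresholds (adjusted p = 0.0365 in edgeR, range over the fits that each left out 1 embryo 0.0365 to 0.255). With the mesenchyme markers as a covariate it was 0.48 (adjusted p = 0.0781 in edgeR). The heterozygote value against WT was under the fold threshold in every fit, and was 0.16 with that covariate, with an adjusted p between 0.000214 and 0.806 over the alternatives (0.0171 in DESeq2). The value of null embryos against heterozygotes was 0.15 without null embryo 1. Exons of Id4 share 171 bases with Gm49291 and 82 bases with A330033J07Rik, both on the opposite strand. Of the other genes described here, exons of Bmpr1a share 290 bases with Gm17110 and those of Bmp4 89 bases with Gm15217, again on the opposite strand.

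Id1 and Id3 are the Id genes most often used as a direct readout of BMP signaling. Id1 (ENSMUSG00000042745, chromosome 2, 152736251 to 152737410, plus strand) was at 66.2, 98.3 and 109.3 CPM in WT, 82.5, 82.6 and 85.1 CPM in heterozygotes, and 88.8, 100.8 and 100.2 CPM in null embryos. The WT libraries had the widest spread and enclosed both other genotypes, while all null libraries were above all heterozygotes. For Id1 the log2 fold change was 0.08 for null against WT (95% interval -0.33 to 0.48, adjusted p = 0.895 in edgeR), -0.13 for heterozygotes against WT (adjusted p = 0.757 in edgeR) and 0.21 for null embryos against heterozygotes (SE 0.0797, adjusted p = 0.376 in edgeR).

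Id3 (ENSMUSG00000007872, chromosome 4, 136143497 to 136145755, plus strand), which lies on the same chromosome as Prdm16, was at 141.4, 217.6 and 212.9 CPM in WT, 168.0, 159.6 and 154.4 CPM in heterozygotes, and 158.7, 183.2 and 151.9 CPM in null embryos. WT embryo 1 was the lowest of the 9 libraries for Id1 and for Id3, and the other WT embryos the highest for Id3. For Id3 the log2 fold change was -0.22 for null against WT (95% interval -0.61 to 0.17, adjusted p = 0.668 in edgeR) and -0.25 for heterozygotes against WT (95% interval -0.55 to 0.05, adjusted p = 0.481 in edgeR). Without WT embryo 1 the heterozygote value was -0.42, still under the fold threshold (adjusted p = 0.0175 in edgeR, range with each embryo left out 0.0175 to 0.827, and 0.00053 with no filter on low counts), and the null value was -0.39. Without WT embryo 2 they were -0.14 and -0.10. Id2 (ENSMUSG00000020644, chromosome 12, 25093799 to 25097140, minus strand), an Id gene with broad expression in the embryo, was at 230.8, 246.5 and 291.2 CPM in WT, 228.7, 260.2 and 263.3 CPM in heterozygotes, and 270.1, 328.2 and 240.2 CPM in null embryos. All genotypes overlapped for Id2, with a log2 fold change of 0.12 for null against WT (95% interval -0.19 to 0.44, adjusted p = 0.775 in edgeR) and -0.03 for heterozygotes against WT (adjusted p = 0.915 in edgeR). The null libraries lay within the WT range for Id1 and Id3, and for Id2 1 of them, null embryo 2, lay above it. The intervals of these 3 genes between null and WT, unlike that of Id4, included 0.

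Sequences before the RefSeq starts of the Id and receptor genes are shown because Smad proteins can bind GC-rich elements near the start of Id genes. RefSeq promoter windows (GRCm38.p6, 250 bases before to 50 bases after each start) were given for 7 of the 10 genes, as 9 windows. They were searched for GGCGCC, a GC-rich Smad element that reads the same on both strands. It was present in 3 of these windows, 1 each of Id2, Id4 and Bmpr1a, and in 11.9% of all 32851 windows. A match is a run of letters and was not tested as a binding site, and no match in the other windows says nothing about Smad binding there. The stretches around the matches follow, 5′ to 3′ on the strand of the gene with the element in capitals.
Id2, chr12:25096308-25096333, minus strand: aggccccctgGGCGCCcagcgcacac
Id4, chr13:48260958-48260983, plus strand: cgggttgcccGGCGCCccgccctcgc
Bmpr1a, chr14:34502729-34502754, minus strand: cgcgcgcgccGGCGCCtcttgctcgc
The elements began 231, 148 and 198 bases before the RefSeq start of Id2, Id4 and Bmpr1a. In the GENCODE annotation the Id4 stretch lies before the gene, and those of Id2 and Bmpr1a lie in introns, since other transcripts of both genes start further upstream. Of these genes Id4 had null libraries above all WT libraries, and Id2 and Bmpr1a did not. The 250 bases before the start of Id4 hold no annotated exon, and the same element is in capitals within them.
Id4, chr13:48260866-48261115, plus strand: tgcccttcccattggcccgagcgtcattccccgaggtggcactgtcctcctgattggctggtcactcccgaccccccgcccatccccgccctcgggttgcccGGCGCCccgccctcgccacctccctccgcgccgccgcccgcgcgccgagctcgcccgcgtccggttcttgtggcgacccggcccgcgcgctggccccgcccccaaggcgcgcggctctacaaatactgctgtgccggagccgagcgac

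The rest of the pathway was read from lists of genes by role, and 2 secreted antagonists and 1 target gene were higher in null than in WT ducts. Of 16 secreted BMP antagonists, 12 were tested between null and WT, 2 were called higher (0.920% of all genes were) and none lower, with a median log2 fold change of 0.26. Over the alternatives 1 to 3 were called higher and none lower, and with each embryo left out 1 to 2 higher and 0 to 1 lower. Between heterozygotes and WT edgeR called none, and other fits and those with an embryo left out called 0 to 2 lower. Chrdl1, a chordin-like protein that binds BMPs outside the cell, was at 18.8, 16.4 and 17.3 CPM in WT, 22.4, 22.9 and 27.1 CPM in heterozygotes, and 67.9, 67.9 and 74.6 CPM in null embryos. Every heterozygote lay above WT and every null embryo far above both. Its log2 fold change was 2.00 for null against WT (SE 0.0933, adjusted p = 1.48e-04 in edgeR), 1.54 for null embryos against heterozygotes (SE 0.102, adjusted p = 0.00117 in edgeR) and 0.46 for heterozygotes against WT (SE 0.101, adjusted p = 0.0796 in edgeR). Bmper, a secreted protein that binds BMPs and can restrain or promote their signaling, was at 44.2, 42.7 and 46.2 CPM in WT, 49.4, 34.9 and 45.2 CPM in heterozygotes, and 61.6, 73.7 and 62.9 CPM in null embryos. The null libraries of Bmper were above all others, 0.57 above WT on the log2 scale (SE 0.0948, adjusted p = 0.0285 in edgeR). The Bmper call was lost when WT embryo 1, 2 or 3 or null embryo 1 was left out, and with null embryo 2 left out its change was under the fold threshold (0.49). The lowest value of the list was that of Fstl1, a follistatin-like protein, at -0.58 between null and WT (adjusted p = 0.478 in edgeR). Fstl1 was at 952.3, 896.5 and 705.2 CPM in WT and at 403.3, 440.5 and 874.3 CPM in null embryos. Only null embryo 3 lay within its WT range. The classical antagonist Nog was at -0.02.

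Of 13 feedback inhibitors and other BMP targets, all were tested between null and WT, 1 was called higher and none lower in edgeR, and over the alternatives 0 to 4 were called higher (4 with DESeq2, 0 to 2 with each embryo left out). The median log2 fold change was 0.30, and 7 of the 13 were higher in every null library, as were 10.1% of all genes. Dlx5, a homeobox gene needed for inner ear development, was at 1.63, 1.61 and 2.07 CPM in WT, 2.01, 3.61 and 3.40 CPM in heterozygotes, and 5.61, 6.30 and 5.36 CPM in null embryos. Its null libraries were above all others, and the log2 fold change against WT was 1.69 (SE 0.207, adjusted p = 0.00768 in edgeR). The adjusted p was 0.0583 without WT embryo 1 and 0.0680 without WT embryo 2. Msx1, a homeobox target of BMP signaling, was the gene of the list called between heterozygotes and WT. It was at 12.8, 14.1 and 15.0 CPM in WT, 20.6, 26.6 and 21.7 CPM in heterozygotes, and 18.6, 23.1 and 20.1 CPM in null embryos. Heterozygotes and null embryos were both above all WT libraries and overlapped each other. Over WT, Msx1 had a log2 fold change of 0.72 for heterozygotes (SE 0.116, adjusted p = 0.0498 in edgeR) and 0.56 for null embryos against WT (SE 0.131, adjusted p = 0.101 in edgeR, and 0.0129 with DESeq2, range over the alternatives 0.0129 to 0.262). The Msx1 call in heterozygotes was lost when any embryo but WT embryo 3 was left out, with an adjusted p of 0.0735 to 0.216, and with RLE factors (0.0504), limma-voom (0.0648), all 9 libraries in 1 fit (0.274), the mesenchyme covariate (0.387) or without the highest-mesenchyme library of each genotype (0.449). The feedback inhibitors Smad6 (0.30) and Smad7 (0.24) were higher in every null library than in WT without passing the test (adjusted p = 0.322 and 0.455 in edgeR). Msx2 had the lowest log2 fold change of the list, -0.43 (adjusted p = 0.711 in edgeR).

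Neither ligands, receptors, Smads nor E proteins outside the 10 genes gave a call in edgeR in any comparison. Other fits called up to 1 of the ligands higher and 1 of the Smads and co-factors lower between null and WT (both with DESeq2), up to 2 of the receptors lower (with DESeq2) and 1 of the ligands lower between heterozygotes and WT, and up to 1 of the ligands higher between null embryos and heterozygotes. Of 10 other BMP and GDF ligands, 4 were tested between null and WT, with a median log2 fold change of 0.46, from 0.08 for Bmp6 to 0.69 for Bmp3 (adjusted p = 0.859 and 0.790 in edgeR). Bmp3, an atypical member of the family, was highest in null embryo 3 at 22.1 CPM, as Bmp5 was. In null embryos 1 and 2 it was at 4.62 and 2.58 CPM, within the WT range of 2.15 to 10.9 CPM. Of 9 other receptors and co-receptors, 8 were tested, with a median of -0.19. The lowest value was that of Acvrl1, a type I receptor of endothelial cells, at -1.36 (adjusted p = 0.686 in edgeR), and its 3 highest libraries were those with the high endothelial marker sums. Rgmb, a BMP co-receptor, had the highest value at 0.25 (adjusted p = 0.238 in edgeR), and Bmpr2, the main type II receptor, was at -0.17 (adjusted p = 0.759 in edgeR). Bmpr2 was at 142.7, 91.9 and 154.0 CPM in null embryos against 137.1 to 150.1 CPM in WT, so that only null embryo 2 was below WT. All 11 Smads and co-factors were tested, with a median of 0.04, from -0.62 for Zfp423, a Smad co-factor, to 0.52 for Tob1, a repressor of Smad activity (adjusted p = 0.0590 and 0.366 in edgeR). Zfp423 was at 71.8, 74.9 and 65.2 CPM in WT, 58.6, 58.0 and 56.2 CPM in heterozygotes, and 45.0, 39.7 and 54.2 CPM in null embryos, in the reverse order of genotypes to Id4. The 3 E protein genes, whose products Id proteins bind, ranged from -0.19 for Tcf12 to 0.03 for Tcf4 between null and WT (adjusted p = 0.622 and 0.939 in edgeR). Tcf12 was at 261.6, 282.1 and 272.7 CPM in WT and 255.4, 192.1 and 271.8 CPM in null embryos, with null embryo 2 the lowest.

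**Figure D4:**
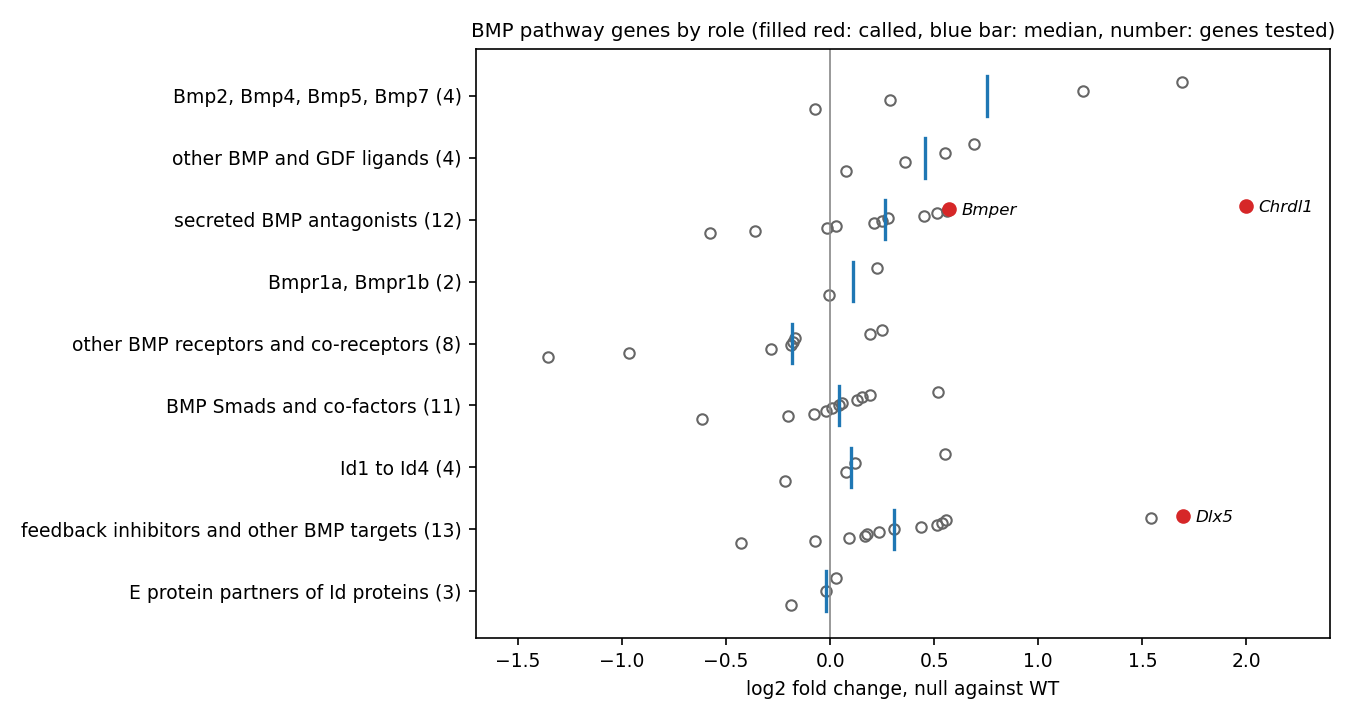
Log2 fold change of null against WT for each tested gene of the BMP pathway, grouped by role, 1 point per gene, with genes that passed the edgeR thresholds marked. The called genes are Chrdl1 (2.00) and Bmper (0.57) among the antagonists and Dlx5 (1.69) among the targets, and none of the 10 ligands, receptors and Id genes is called.

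The pattern of each gene over the 9 libraries was compared with that of 14808 genes by Pearson's r of log2 CPM, as a description of libraries that share genotype and tissue makeup. Bmp5 had the closest match, Alcam at r = 0.995, followed by Mrc2 at 0.985. The closest genes to Id4 were Arntl2 (r = 0.982) and Wipf3 (0.974), and those to Bmp2 were Mirg (0.967) and Tinagl1 (0.966). Bmp4 was closest to Mkrn1 (0.967) and Usp20 (0.965), Bmp7 to Lsm11 (0.943) and Zfp773 (0.929), Bmpr1a to Ttbk2 (0.973) and Arl5b (0.965), and Bmpr1b to Ap3b2 (0.935) and Sorbs2 (0.932). Id1 was closest to Sh3bp4 (0.937) and Rps6kc1 (0.890), Id2 to Atg101 (0.948) and Mrps18c (0.933), and Id3 to Ubox5 (0.948) and Reps1 (0.927). These were picked as the closest of 14808 genes over only 9 libraries, so a high r alone does not mark a link between genes. No member of the 10 was among the closest pair of another, which was likely beforehand with so many genes compared. Among all pairs of the 10 genes r ranged from -0.71 for Bmp2 and Bmp7 to 0.72 for Id1 and Id3, over 9 libraries and with no test.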

How the data were processed

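RNA was measured in 9 libraries of E14.5 cochlear duct, grouped by labelled genotype. The values the authors deposited are raw read counts per Ensembl gene. They made TruSeq mRNA libraries and 50-base single reads. The submitters' processing notes name cutadapt 1.13, STAR, HTSeq 0.6.1p1, DESeq2 and mm10, and the paper's methods also name Cufflinks. The strand setting and annotation release are not given in the sources used here. All 37 mitochondrial genes hold 0 counts.

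Gene names and positions were taken from GENCODE M21 (54165 of 54232 genes). For every pair of genotypes, the 6 libraries concerned were fitted with edgeR 4.0.16 in R 4.3.3 (quasi-likelihood test, TMM, filterByExpr with a minimum count of 10, Benjamini-Hochberg over all genes), and a gene was called at an adjusted p under 0.05 with a log2 fold change beyond 0.5 in either direction. The 95% intervals come from that fit. The floor of 3 counts covers counting error only. Levels are TMM CPM, and log2 CPM used a prior count of 2. The scripts were tested on simulated data. Replicates of a genotype differed by more than sampling noise (chi-square per gene 5.70 or more).

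The 10 genes and the lists were chosen with earlier results of these data known. Other genes are named where they passed an adjusted p of 0.05 in a pathway list, had its highest or lowest value, or were among the 2 closest in pattern to a member (mean of at least 1 CPM). Genes named beyond this rule (Nog, Smad6, Smad7, Bmpr2 and the marker genes Acan, Col2a1, Sgk1, Tac1, Pcdh17, Sfrp1, Tecta, Oc90 and Lrp2) were chosen after their values were seen. Alternatives were DESeq2 1.42.0, limma-voom (limma 3.58.1), RLE factors, no filter on low counts, a joint fit of all 9 libraries, a block for the replicate number, a mesenchyme marker covariate, no fold threshold, and each embryo left out in turn. A fit without the library of each genotype with the highest mesenchyme markers was added after seeing the data.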

Additional observations from a re-analysis of the deposited data

How the results depend on the processing

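Of the 10 genes, the number called between null and WT was 2 (Bmp2 and Id4) with DESeq2, with no filter on low counts and with all 9 libraries in 1 fit, 1 (Bmp2) with the mesenchyme covariate, and 0 to 2 with each embryo left out. With no filter 1 gene was called between heterozygotes and WT (Bmp5) and 1 between null embryos and heterozygotes (Bmp2), and leaving out each embryo gave 0 to 1 and 0 called in these comparisons. The log2 fold change of Bmp2 between null and WT kept its sign in every alternative, those that left out an embryo included (1.02 to 1.93, adjusted p 4.16e-06 to 0.347), as did that of Id4 (0.46 to 0.62, adjusted p 0.00134 to 0.255). Chrdl1 was called between null and WT in every alternative (1.91 to 2.06), and Bmper and Dlx5 were not called with the replicate block (adjusted p 0.112 and 0.0530) or without the highest-mesenchyme library of each genotype (0.141 and 0.0603).

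Over all genes, the number called higher and lower between null and WT was 333 and 285 with DESeq2, 267 and 209 with no filter, 260 and 208 with all 9 libraries, 52 and 66 without the highest-mesenchyme library of each genotype, and 31 to 214 and 37 to 232 with each embryo left out. Between heterozygotes and WT it was 48 and 270 with DESeq2, 109 and 575 with no filter, 0 and 0 with all 9 libraries, 5 and 6 with limma-voom, 2 and 8 with the mesenchyme covariate, 0 and 0 without the highest-mesenchyme libraries, 22 higher with no fold threshold, and 0 to 47 and 0 to 458 with each embryo left out. Between null embryos and heterozygotes it was 196 and 161 with DESeq2, 227 and 139 with no filter, 79 and 85 with all 9 libraries, 125 and 143 with the mesenchyme covariate, 26 higher without the highest-mesenchyme libraries, and 5 to 81 and 6 to 101 with each embryo left out. The cause was not tested.

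Embryos of 1 number in different genotypes showed no shared variation (deviations from the genotype means correlated at -0.0068 on average, and 2 of 9 libraries correlated best with their own number), so the numbers do not pair them. With the replicate number as a block, 65 genes were called higher and 68 lower between null and WT, 32 and 165 between heterozygotes and WT, and 22 and 30 between null embryos and heterozygotes, none of them among the 10, and Bmp5 had a log2 fold change of -0.53 between null and WT.

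The following differences changed sign, those of Bmp5 from 1.22, -1.45 and 2.68 and the others from values of at most 0.23 in size. Between null and WT, Bmp5 was at -0.33 with limma-voom and -1.25 without the highest-mesenchyme libraries, where Bmpr1b was at -0.071, and with the mesenchyme covariate Bmpr1a was at 0.0078 and Id2 at -0.0029. Between heterozygotes and WT the covariate gave -0.048 for Bmp4, 0.11 for Bmp5, -0.026 for Bmp7 and -0.30 for Bmpr1b, and without the highest-mesenchyme libraries Bmpr1b was at -0.14 and Bmper at 0.064. Between null embryos and heterozygotes Bmp5 was at -0.029 with the covariate and -0.59 without those libraries. With each embryo left out, null against WT spanned -2.15 to 2.12 for Bmp5, -0.089 to 0.096 for Bmpr1a, -0.10 to 0.23 for Id1 and -0.0039 to 0.23 for Id2. Heterozygotes against WT spanned -0.030 to 0.021 for Bmp7, -0.15 to 0.090 for Bmper, -0.057 to 0.24 for Bmpr1b, -0.32 to 0.021 for Id1 and -0.10 to 0.071 for Id2. Null against heterozygotes spanned -0.70 to 3.23 for Bmp5, -0.14 to 0.043 for Bmpr1a, -0.018 to 0.36 for Bmpr1b and -0.046 to 0.089 for Id3. Bmp5 had 36 to 959 counts per library and a coefficient of variation of 156% between null embryos.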
